A study of Mus musculus with 14 samples.

Results

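Adipocytes share the mammary gland with its epithelium and can be carried into a tumor sample together with it, so that bulk RNA-seq of a mammary tumor reads their transcripts beside those of the cancer cells. Here, 10 adipocyte genes were followed across 14 mouse mammary tumors: the receptor Adrb3, the hormone and secreted protein genes Adipoq, Lep, Retn and Cfd, the lipid droplet and lipid carrier genes Plin1, Cidec and Fabp4, the transcription factor gene Pparg, and Ucp1 of brown and beige fat. All 10 had 1 row each among the 56414 genes listed. The set was drawn up because Adrb3 lay higher with nicotinamide (NAM, a form of vitamin B3) in 1 of the 2 tumor models, and it raises the question of whether Adrb3 moved with the fat content of the tumors. The set was thus chosen by the values of Adrb3 in NAM-treated against untreated tumors of that model, and this contrast is described below without a test.

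The tumors came from female C57BL/6 mice. In the M/D model, a pellet with 50 mg of medroxyprogesterone acetate (MPA, a synthetic progestin) was implanted at 6 to 9 weeks of age, and 7,12-dimethylbenz[a]anthracene (DMBA, a chemical carcinogen) was given by gavage as 200 µL of a solution of 5 mg/mL, so that all M/D-driven tumors, controls included, had seen both agents. AT3 tumors grew from cells of AT3, a single mouse mammary carcinoma cell line, injected under the skin. Mice were assigned to treatment once tumors reached 0.25 cm2, and NAM was given as 0.5% of the drinking water for 10 days. RNA was sequenced from 8 tumors of the M/D model, 4 with and 4 without NAM, and from 6 AT3 tumors, 3 with and 3 without NAM, with 1 library each. NAM-treated M/D-driven tumor 1 belonged to Experiment 2, the other 7 M/D-driven tumors to Experiment 1, and all AT3 tumors to Experiment 3, so that model and experiment cannot be told apart. Values are normalized counts, that is, the reads of a gene divided by a factor for the depth of the library, and tumors held 40936868 to 84178009 reads. The sum of 10 epithelial genes (Epcam, keratins, claudins and a cadherin) was 337372 to 1044041 in untreated M/D-driven tumors and 278685 to 659770 in NAM-treated tumors 2, 3 and 4, but 8538 in NAM-treated tumor 1, where the sum of 9 leukocyte genes was the highest of the 8 tumors (170639, against 27945 to 45469 in the others).

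Adrb3 encodes the beta-3 adrenergic receptor, through which catecholamines start lipolysis in white adipocytes and heat production in brown ones. The receptor raises cyclic AMP, protein kinase A then acts on perilipin 1 (Plin1) at the surface of the lipid droplet, and lipases release fatty acids. PPAR-gamma (Pparg) and C/EBP-alpha drive the genes of the mature adipocyte, adiponectin (Adipoq), leptin (Lep), resistin (Retn) and adipsin (Cfd) are secreted by fat, and uncoupling protein 1 (Ucp1) lets brown adipocyte mitochondria burn fuel as heat. Not all of these genes are confined to fat: Fabp4 is also made by macrophages and capillary endothelium, and Pparg by macrophages and some epithelia.

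The sequences just upstream of 3 of these genes are shown because they hold letters that C/EBP proteins, nuclear receptors or CCAAT-binding factors are known to bind. RefSeq (GRCm38.p6) start sites were on hand for 8 of the 10 genes, with 11 windows in all, and not for Adrb3 and Fabp4. Letters were searched on both strands of whole windows, the 250 bases before each start and a shorter stretch past it (chr16:23146286-23146585 for Adipoq). They were TTGCGCAA (a palindrome bound by C/EBP proteins) and AGGTCA (the half-site of PPAR and other nuclear receptors). The direct repeat of this half-site with 1 base between (bound by PPAR with RXR) was included. So were CCAAT (the core of the CCAAT box), TATAAA (the TATA box) and TGACGTCA (the cyclic AMP response element). Capitals mark the matches in the last 100 bases before the start. They lie at chr6:29060121-29060220 for Lep, chr8:83290248-83290347 for Ucp1 and chr16:23146436-23146535 for Adipoq, all on the plus strand.
Lep: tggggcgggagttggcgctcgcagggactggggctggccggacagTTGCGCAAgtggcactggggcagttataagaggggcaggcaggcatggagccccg
Ucp1: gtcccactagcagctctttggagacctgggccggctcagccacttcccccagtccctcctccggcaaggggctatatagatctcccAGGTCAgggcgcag
Adipoq: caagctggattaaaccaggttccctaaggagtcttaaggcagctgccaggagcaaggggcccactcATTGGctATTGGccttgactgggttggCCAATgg
The palindrome of Lep begins 55 bases before the start, and 60 of 32851 whole windows (0.183%) hold it. The half-site of Ucp1 begins 14 bases before the start, a motif found in 16.3% of windows, and Pparg had it as well in 2 of its windows. Adipoq holds the CCAAT letters at 1 place on the plus strand and, read as ATTGG, at 2 places on the minus strand, and 37.4% of windows hold them. Neither the direct repeat (0.0396% of windows) nor TGACGTCA (1.79%) occurred in a window of these genes, and TATAAA (13.6%) occurred in 1 of them, of Pparg. These matches are descriptions of the letters, and binding was not measured.

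In M/D-driven tumors, Adrb3 (GSMG0038238, chr8:27225776-27229588 on mm10) had 554, 485, 903 and 300.2 normalized counts in untreated tumors 1 to 4 and 1405, 1359, 1494 and 1530 in NAM-treated tumors 1 to 4. The groups did not overlap, and the treated tumors lay within a narrow band while the untreated tumors were spread over a wider one. The means were 560 ± 252 and 1447 ± 78.7 (SD, n = 4 each), a difference of 1.47 on the log2(normalized count + 1) scale (SE 0.32). Without NAM-treated tumor 1, that is, within Experiment 1, the difference was 1.49 (SE 0.35), and leaving out 1 tumor at a time gave 1.21 (without untreated tumor 4, the lowest) to 1.74 (without untreated tumor 3, the highest untreated). Among the 21700 genes with a mean of at least 10 in a group, 5.24% had a difference as high as that of Adrb3. In bulk tumors, fewer adipocytes and less RNA of a gene in each adipocyte cannot be told apart.

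**Figure D1:**
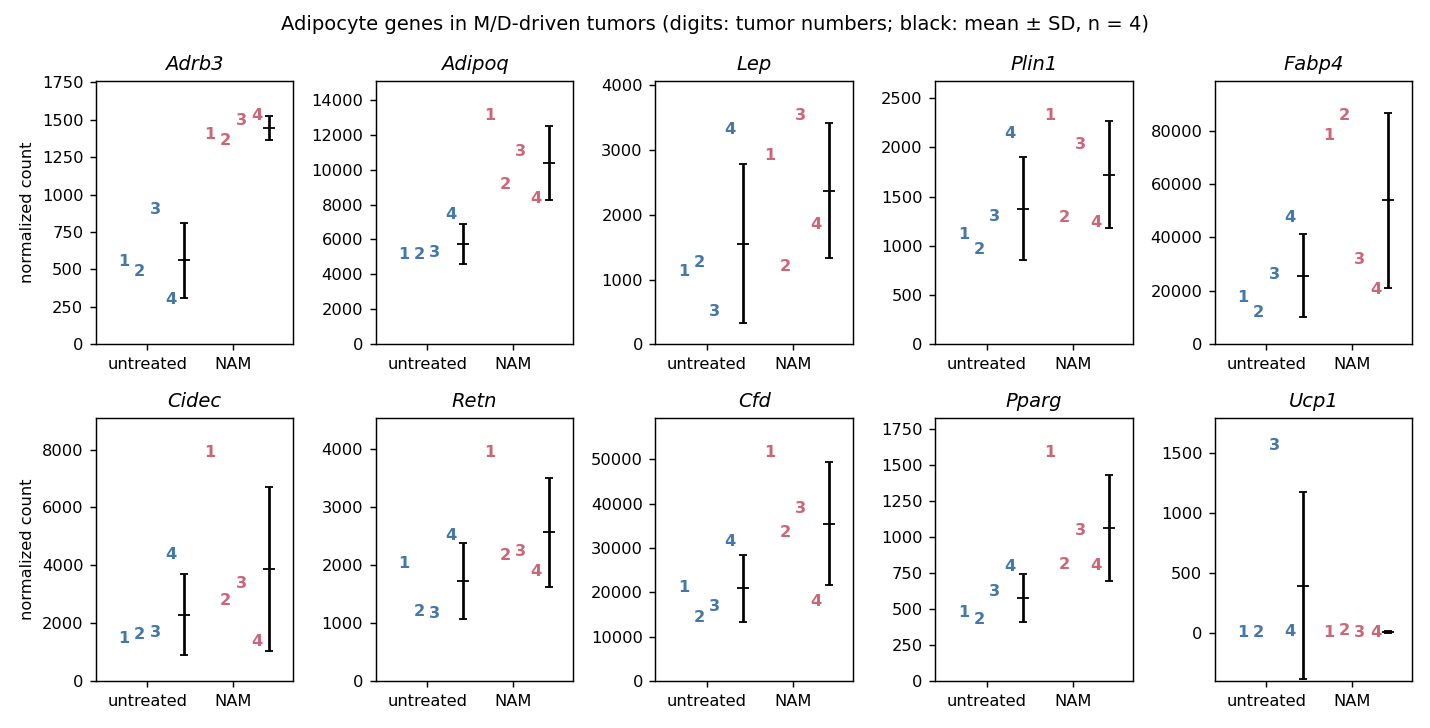
Normalized counts (linear axes) of the 10 adipocyte genes in M/D-driven tumors without (blue) or with (red) NAM, each digit being the tumor of that number and the black mark the mean ± SD of 4 tumors. Groups lie apart for Adrb3, Adipoq and Pparg, and untreated tumor 4, the lowest for Adrb3, is the highest untreated tumor for the other genes except Ucp1.

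Of the secreted products, Adipoq (GSMG0014804, chr16:23146536-23158030) had 5156, 5123, 5276 and 7452 normalized counts in untreated tumors and 13109, 9137, 11020 and 8357 in NAM-treated tumors. The groups again did not overlap, with means of 5752 ± 1135 and 10406 ± 2120 (SD, n = 4 each) and a log2 difference of 0.85 (SE 0.21). Lep (GSMG0031586, chr6:29060218-29073876), the satiety hormone whose transcript follows the filling of fat stores, had 1123, 1263, 502 and 3323 in untreated and 2911, 1202, 3537 and 1850 in treated tumors, and the groups were interleaved (log2 difference 0.82, SE 0.58). Retn (GSMG0036952, chr8:3655769-3659817) had 2033, 1201, 1168 and 2520 against 3955, 2175, 2243 and 1895, with overlap (0.59, SE 0.34). Cfd (GSMG0003238, chr10:79890853-79892660), the complement factor D made by fat, had 21195, 14385, 16745 and 31445 against 51655, 33386, 38971 and 17978, with NAM-treated tumor 4 among the untreated tumors (0.73, SE 0.37). The row of Cfd lies within the span given for Tmem259, the strand of counting is not given in the sources used here, and the part of Tmem259 reads in it was not tested.

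Of the lipid droplet and carrier genes, Plin1 (GSMG0036158, chr7:79721164-79732892) had 1110, 963, 1298 and 2140 normalized counts in untreated and 2326, 1292, 2032 and 1240 in NAM-treated tumors. The groups overlapped over most of their range, and the log2 difference of 0.34 (SE 0.32) was the smallest of the 9 members above 0. Cidec (GSMG0033533, chr6:113424634-113435760), which fuses lipid droplets into a large one, had 1482, 1615, 1657 and 4377 against 7915, 2798, 3372 and 1375 (0.64, SE 0.56), and Fabp4 (GSMG0025162, chr3:10204342-10208577), the fatty acid carrier, had 17571, 11922, 26148 and 47323 against 78149, 85783, 31694 and 20394 (1.02, SE 0.57). Both overlapped, and NAM-treated tumor 4 was the lowest of the 8 tumors for Cidec although it was the highest for Adrb3.

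Pparg (GSMG0032353, chr6:115360951-115490401) had 473, 425, 620 and 794 normalized counts in untreated and 1592, 810, 1048 and 803 in NAM-treated tumors. The groups did not overlap, but the highest untreated tumor and the lowest treated tumor differed by few counts (794 and 803), with means of 578 ± 166 and 1063 ± 370.3 (SD, n = 4 each) and a log2 difference of 0.86 (SE 0.31). In all, with Adrb3 counted although it chose the set, 9 of 10 members had a log2 difference above 0 (51.1% of all genes tested did), their median was 0.77 (0.01 over all genes), 3 of 10 lay higher in NAM-treated tumors with no overlap (2.43% of all genes did), and 0 lay lower with no overlap (2% of all genes did). Without Adrb3, 8 of 9 were above 0, with a median of 0.73, and 2 of 9 lay higher without overlap. Nothing is read from these counts. Leaving out a tumor cannot make groups overlap that lie apart, so Adrb3, Adipoq and Pparg lay apart in each such set by arithmetic. Without NAM-treated tumor 4, Cfd lay higher without overlap as well, as did 4.06% of all genes. The median of the 10 members was 0.58 without NAM-treated tumor 1. That tumor was the highest of the 8 tumors for 6 members, whereas untreated tumor 2 was the lowest for 5. The shares of all genes highest or lowest in these tumors were not computed.

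Ucp1 (GSMG0037514, chr8:83290348-83298456) went its own way. It had 0, 0, 1563 and 15.3 normalized counts in untreated and 0.849, 20.7, 0 and 7.22 in NAM-treated tumors of the M/D model, and untreated tumor 3 alone held 97.3% of the sum over the 8 tumors. No fold change between groups is therefore given for it. The same tumor was the highest of the 8 for 6 of 15 other brown and beige adipocyte genes: Cidea, Prdm16, Cox7a1, Cox8b, Kcnk3 and Slc27a2. The share of all genes highest in this tumor was not computed, so nothing is read from that count. Prdm16 led by little (502 against at most 448 in the other 7 tumors). Slc27a2, a fatty acid transporter and activating enzyme, had 113 counts there against 0 to 24.6 in the other 7 tumors, and Kcnk3, a potassium channel, 441 against 43.5 to 245. Cidea, a lipid droplet protein, had 2677, but 2590 in untreated tumor 4, where Ucp1 was at 15.3. Neither Dio2 (1714, with up to 3856 elsewhere) nor Ppargc1a (229, with up to 353 elsewhere) was highest in untreated tumor 3. Skeletal muscle, which also makes the Cox7a1 and Cox8b subunits, was present to differing extents: the sum of 10 muscle genes was 29945 in untreated tumor 3, 230 to 14768 in the other untreated tumors, and 91099 and 285557 in NAM-treated tumors 2 and 4, where Ucp1 was at 20.7 and 7.22.

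**Figure D2:**
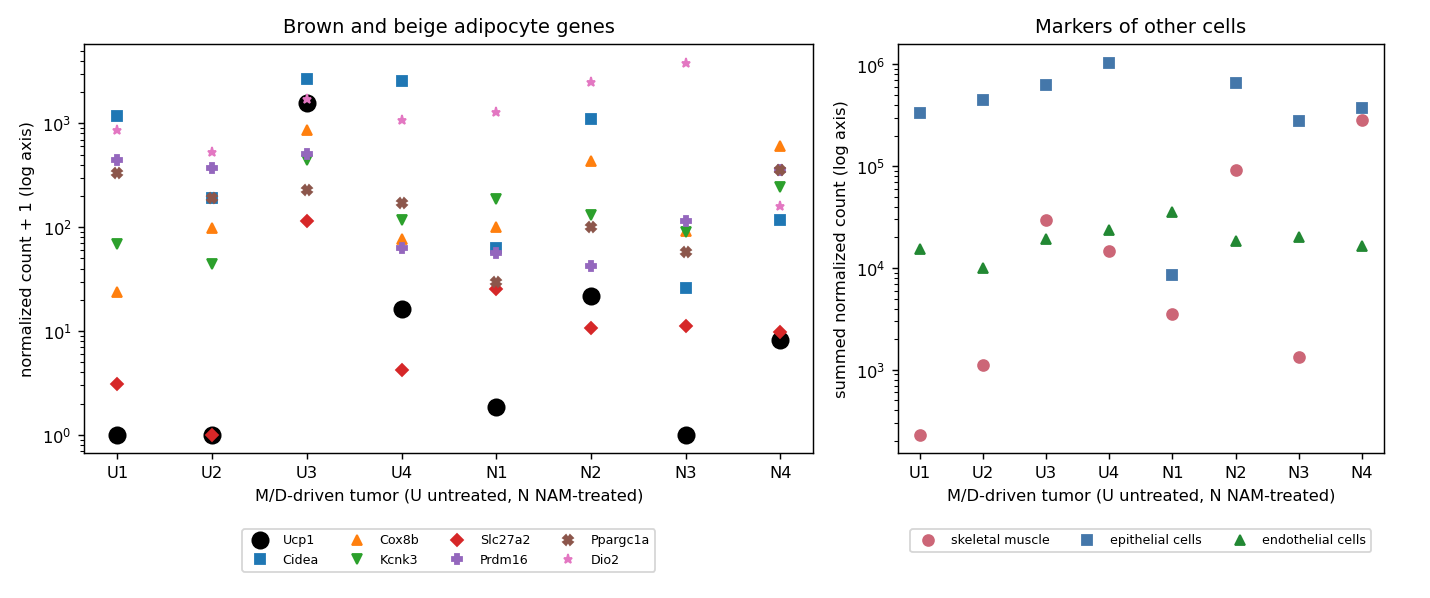
Left, Ucp1 (black) and 7 other brown and beige adipocyte genes as normalized counts + 1 (log axis) in the 8 M/D-driven tumors (U untreated, N NAM-treated); right, summed normalized counts (log axis) of marker lists of muscle, epithelial and endothelial cells in the same tumors. Ucp1 reaches 1563 in untreated tumor 3 and at most 20.7 elsewhere, and the muscle sum is higher in NAM-treated tumors 2 and 4 than in untreated tumor 3.

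To see whether Adrb3 followed the other fat genes from tumor to tumor, their values were set side by side. The 8 members other than Adrb3 and Ucp1 moved together: Pearson's r of log2 values over the 8 M/D-driven tumors exceeded 0.5 for 27 of their 28 pairs (median 0.78), and for 26 of 28 pairs (median 0.76) after values were centred on the mean of each group. Adrb3 did not share this pattern after centring, where its r with each of the 8 was -0.81 (Lep) to -0.24 (Pparg), with a median of -0.48. Among treated tumors Adrb3 varied little (1359 to 1530), so these r rest mostly on untreated tumors 3 (903) and 4 (300). No centred r was computed with 1 of these left out. Over untreated tumors 1 to 3, Adrb3 had the same order as Adipoq, Plin1, Fabp4 and Pparg, but not as Lep, Cidec, Retn and Cfd. These are descriptions over 8 tumors that share their libraries. In untreated tumor 4, the 8 fat genes had their highest untreated values, and Adrb3 its lowest. Over all 8 tumors, Adrb3 and Adipoq had a Pearson's r of 0.64 and a Spearman's rho of 0.69, given without a test. The r was 0.52 without the 2 tumors farthest from the median of Adipoq, 0.60 within Experiment 1, 0.86 without untreated tumor 4 and -0.53 after centring on the groups, and since the groups lay apart for both genes the pooled value reflects the positions of the groups. In the 6 AT3 tumors, where Adrb3 was read at low counts, r with Adipoq was 0.19 (exact permutation p = 0.743, adjusted p = 0.954 over 18 relations of Adrb3 with a member in a model) and rho was 0.09 (exact permutation p = 0.919, adjusted p = 0.974).

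Expressed per 1000 normalized counts of Adipoq, Adrb3 was 107, 94.6, 171 and 40.3 in untreated and 107, 148.7, 136 and 183 in treated tumors of the M/D model. Untreated tumor 3 thus lay among the treated tumors, and NAM-treated tumor 1 beside untreated tumor 1, with a log2 difference of group means of 0.62. Per 1000 counts of Plin1, it was 499, 503, 696 and 140 in untreated and 604, 1052, 735 and 1234 in treated tumors, again with overlap (log2 difference 1.14). The ratio to each of the 8 fat genes overlapped between groups, and the 8 log2 differences ran from 0.46 (Fabp4) to 1.14 (Plin1). Ratios are of counts, not per length, and compare tumors, not genes.

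**Figure D3:**
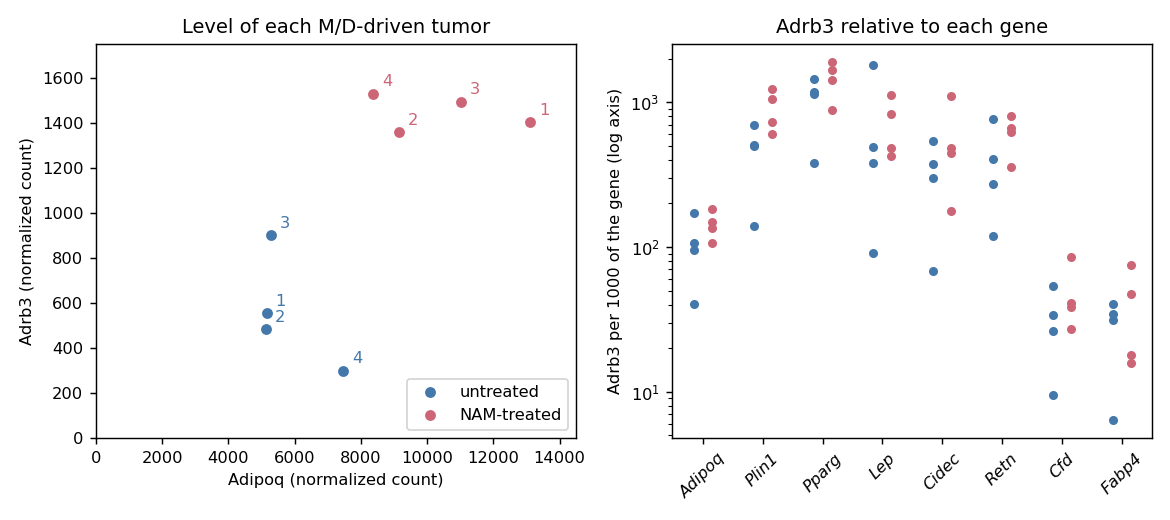
Left, normalized counts of Adrb3 against Adipoq in the 8 M/D-driven tumors (digits are tumor numbers); right, Adrb3 counts per 1000 counts of each of 8 fat genes (log axis), with 1 point per tumor, untreated in blue and NAM-treated in red. Both genes place the groups apart on the left, whereas on the right the ratios of the groups overlap for all 8 genes.

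When log2 Adipoq was added to the fit as a covariate, the NAM difference of Adrb3 was 2.24 (SE 0.62), while those of the 7 other fat genes fell below 0, from -0.37 (Pparg, SE 0.43) to -2.04 (Cidec, SE 0.43). The groups do not overlap in Adipoq, so this fit compares them at a level that they do not share. With log2 Plin1 as the covariate (chosen after seeing the data), where the groups do overlap, the difference was 1.61 (SE 0.35) for Adrb3, 0.67 (SE 0.16) for Adipoq and 0.58 (SE 0.22) for Pparg, and 0.08 (Cidec, SE 0.34) to 0.62 (Fabp4, SE 0.53) for the other 5. How much of the difference in Adrb3 went with the number of adipocytes was not tested, since adipocytes were not counted.

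**Figure D4:**
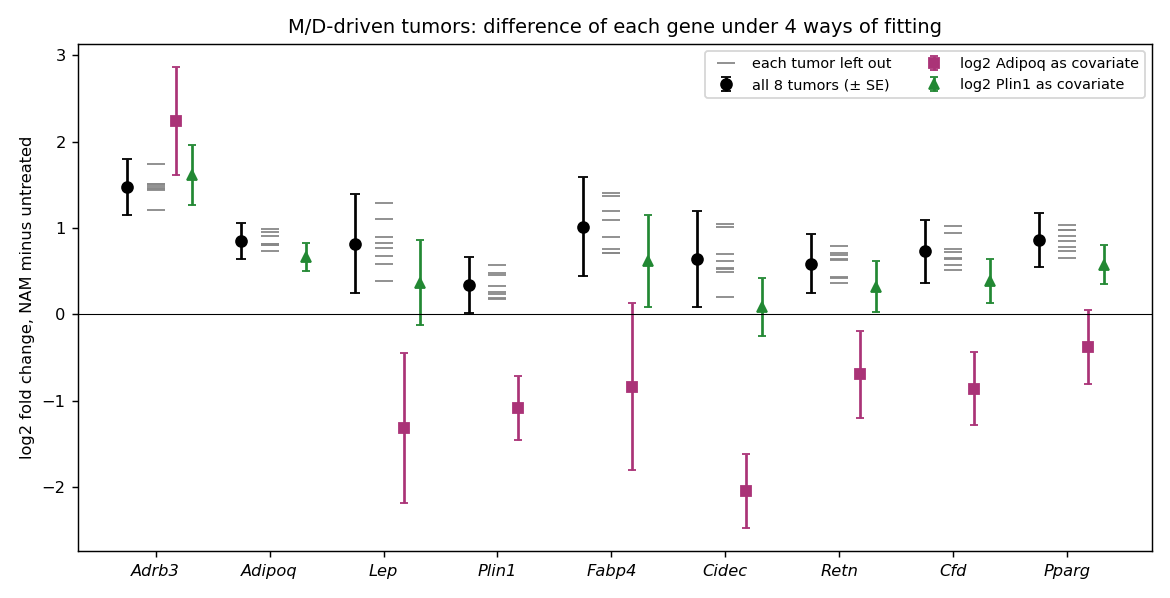
Log2 difference of NAM-treated minus untreated M/D-driven tumors (log2(normalized count + 1) scale) for 9 members, with all 8 tumors (black, ± SE), each tumor left out in turn (grey bars), or with log2 Adipoq (purple, ± SE) or log2 Plin1 (green, ± SE) as a covariate. Adrb3 lies between 1.21 and 2.24, and the 7 other genes fitted with Adipoq lie below 0. The groups share no level of Adipoq, so the purple values compare them at a level that neither group pair has in common.

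Genes of the same pathways, listed apart from the members, gave the following counts in M/D-driven tumors. A gene was called where limma's p, before adjustment, did not exceed 0.05 and its change was 1.5-fold or more, which 3.03% of all genes passed as higher and 3.19% as lower. Among 24 other mature adipocyte genes, 1 was higher, Car3 (carbonic anhydrase 3, with a mean of 13923 ± 6297 against 21064 ± 3084, SD, n = 4 each), 0 were lower, and the median log2 difference was 0.26. edgeR and DESeq2 called 0 of these 24 genes higher and 1 lower, and limma called 0 to 2 higher when 1 tumor was left out (0 without NAM-treated tumor 1, with a median of 0.09). Plin4, another lipid droplet coat protein, had a log2 difference of 0.65 (SE 0.47), Lipe (hormone-sensitive lipase) one of 0.24 (SE 0.30), Pnpla2 (the first lipase of the lipolytic chain) one of 0.30 (SE 0.24) and Lpl (lipoprotein lipase) one of 0.12 (SE 0.42), and none of these 4 passed. Of 12 adipogenic transcription factor genes, Nr1h3 (the oxysterol receptor LXR-alpha) was higher (813 ± 81.4 against 1905 ± 1028, log2 difference 1.10) and Cebpa (C/EBP-alpha) was lower (14984 ± 5074 against 7735 ± 2143, log2 difference -0.95), with a list median of -0.20. Cebpa had 4568 to 9310 counts in treated and 11275 to 22408 in untreated tumors, without overlap, and thus lay opposite to Pparg. In untreated AT3 tumors, the mean was 1912 normalized counts for Cebpa and 106 for Adipoq, counts that are not per length. Which cells made Cebpa was not tested.

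None of 18 genes of beta-adrenergic signalling and lipolysis passed (median 0.13), and Adrb1, the beta-1 receptor, gave a log2 difference of 0.38 (SE 0.99). Adrb1 had 134, 1217, 199 and 253 counts in untreated and 62.0, 554, 1106 and 620 in treated tumors, with overlap. Of 14 brown and beige genes tested, Tmem26 (2.13) and Cpt1b (0.74, an enzyme that muscle makes as well) were higher and Cidea was lower (-3.21), with a median of 0.34. Tmem26 had 59.3 to 95.0 counts in untreated tumors, 2089 in NAM-treated tumor 1 and 107, 249 and 233 in NAM-treated tumors 2 to 4. In edgeR, and when untreated tumor 1 or 3 or NAM-treated tumor 1 or 3 was left out, 0 genes of this list were lower, and its median was 0.05 in edgeR and 0.06 in DESeq2. Cidea is also known from sebaceous cells, of whose 5 genes Scd3 was lower, and the summed counts of these (mostly Krt79) were 2006 to 489355 in untreated and 120 to 194914 in treated tumors. Of 10 fatty acid synthesis genes, Me1 (malic enzyme, a source of NADPH) was lower (-1.44), 0 were higher, and the median was -0.28, and of 10 adipocyte progenitor genes 0 passed (median 0.10). Adjusted over all genes, the count was 0 in every list (0.00461% of all genes passed).

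Genes of other cells that moved beside the fat genes were as follows. All 10 skeletal muscle genes had a log2 difference above 0 (median 2.81), with Myh4 (fast myosin) higher at 7.30 and sums of 230 to 29945 in untreated and 1330 to 285557 in NAM-treated M/D-driven tumors. Without NAM-treated tumor 4 or untreated tumor 1, the muscle median was 1.54 and 1.56, with 8 of 10 above 0 and 0 called, and edgeR called 0 with all tumors. All 10 epithelial genes had one below 0 (median -1.33), of which 0 passed, but without NAM-treated tumor 1 the median was -0.23, with 3 of 10 above 0 and 1 called lower. All 8 endothelial genes had one above 0 (median 0.34), of which 0 passed. Of 9 leukocyte genes, 0 passed (median 0.18), with sums of 29723 to 37474 in untreated and 27945 to 170639 in treated tumors. The part of these cells in the values of the members was not tested.

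The 7 genes with a mean of at least 10 that lie within 200 kb of Adrb3 had log2 differences of -1.55 to 0.05 in M/D-driven tumors. Rab11fip1 (a vesicle recycling protein, -1.55, SE 0.61) and Erlin2 (an endoplasmic reticulum protein, -0.67, SE 0.24) were lower, and 0 were higher. Over all genes, 3.03% passed as higher and 3.19% as lower, and nothing is read from these counts of neighbours. The genes whose log2 values were most like those of Adrb3, over the 14 tumors and with each model centred, included Atp6v1g2, Taf1b, Immt, 2900052L18Rik, Sec31b, Fam193b, Mum1, Adamts10 and Tcirg1, with Pearson's r of 0.82 to 0.85, some of them at low counts (Immt had a mean of 3.69 in untreated M/D-driven tumors). Among the 17605 genes ranked this way, the member closest to Adrb3 was Adipoq at rank 1231 (r = 0.39), followed by Cfd at rank 1376 (r = 0.37), and the farthest was Retn at rank 8988 (r = -0.07). Treatment was not centred, so these r include the NAM difference of Adrb3 that chose the set. The AT3 tumors entered with only 6 to 30 reads of Adrb3. Nothing is read from the ranks.

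AT3 tumors allowed a test on values by which the set was not chosen, although earlier results of these data were known. There, Adrb3 did not pass the test of NAM-treated against untreated tumors, with 8.70, 30.5 and 4.88 normalized counts in untreated tumors 1 to 3 and 26.7, 13.2 and 6.61 in NAM-treated tumors 1 to 3. The groups were interleaved, with means of 14.7 ± 13.8 and 15.5 ± 10.3 (SD, n = 3 each), a log2 difference of 0.25 (SE 0.81) and an adjusted p of 0.865 in limma. Adipoq had 92.7, 75.1 and 150 counts in untreated and 245, 60.2 and 59.5 in treated tumors (log2 difference -0.08, SE 0.57, limma adjusted p = 0.938). With an SE of 0.81, the difference of 1.47 seen for Adrb3 in M/D-driven tumors lay within 2 SE of the value in AT3 tumors, so that an equal difference could not be told from none. NAM-treated tumor 1 had the highest values of the 6 AT3 tumors for Adipoq, Lep, Plin1, Cidec, Retn and Cfd, and it also had the highest sum of skeletal muscle genes (23938, against 180 to 17540 in the others). Of the 9 members tested, 0 were higher (12.2% of all genes were) and 1 was lower (10.9% of all genes were), and Ucp1 (0, 0 and 0 in untreated and 4.86, 0 and 0 in treated tumors) was too low to be tested. The groups did not lie apart for any member, whereas 11.7% of all genes lay higher and 11% lower without overlap.

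The lower gene was Fabp4, with 8882, 5354 and 7937 normalized counts in untreated and 5952, 2538 and 3024 in NAM-treated AT3 tumors. The groups overlapped in 1 pair of tumors, with a log2 difference of -1.02 (SE 0.34, limma adjusted p = 0.169). The call was lost without untreated tumor 1 (log2 difference -0.87, limma adjusted p = 0.421), NAM-treated tumor 2 (-0.77, limma adjusted p = 0.491) or NAM-treated tumor 3 (-0.89, limma adjusted p = 0.55), and with all 14 tumors in 1 fit (limma adjusted p = 0.369). Beside it, endothelial genes, whose cells can make Fabp4, summed to 5369 to 6797 in untreated and 7365 to 10450 in treated tumors. Leukocyte genes summed to 8360 to 9788 and 10370 to 12263. Of the single genes, 7 of 8 endothelial and 5 of 9 leukocyte genes had a log2 difference above 0. The part of these cells in Fabp4 was not tested. Cfd was lower only without NAM-treated tumor 1 (log2 difference -0.85, limma adjusted p = 0.0909, against -0.13 with all tumors). For Lep, Plin1, Cidec, Retn and Pparg, log2 differences were 0.73 (SE 0.72), 0.69 (SE 1.23), 0.96 (SE 0.78), 0.21 (SE 0.99) and 0.04 (SE 0.35), with limma adjusted p values of 0.444 to 0.956.

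The pathway lists gave more calls in AT3 tumors than in M/D-driven tumors, as did the genes as a whole (12.2% higher and 10.9% lower). Of 22 other mature adipocyte genes tested, 3 were higher and 0 lower: Gpam (1.25), Acsl1 (1.00) and Dgat2 (0.79), which make triglycerides or activate fatty acids for it in many cell types. Of 12 adipogenic transcription factor genes, 4 were higher (Zfp423 by 1.52, Rxra by 1.42, Ebf1 by 1.38 and Ppargc1b by 1.10) and Cebpd was lower (-0.78). Of 18 beta-adrenergic and lipolysis genes, 4 were higher, among them Prkacb (a catalytic subunit of protein kinase A, 1.08), Adcy3 (an adenylyl cyclase, 0.93) and Adra2a (an alpha-2 receptor, 0.85), and G0s2, an inhibitor of lipolysis, was lower (1047 ± 272 against 368 ± 99.0, SD, n = 3 each). Of 10 fatty acid synthesis genes, Scd2 (1.53), Acly (1.03) and Elovl5 (0.86) were higher. Of 12 brown and beige genes tested, Ppargc1a was higher (1.00) and Cpt1b lower (-0.96). Of 10 progenitor genes, Pdgfra (1.14) and Icam1 (0.80) were higher. At an adjusted p, 0 genes of any list passed (0.00519% of all genes did), and list counts moved with the tumors used: without untreated tumor 1, only 1 of the 18 beta-adrenergic and lipolysis genes was higher, and without NAM-treated tumor 1, 7 were. Leaving out untreated tumor 2 or 3 gave 6 and 1 of them, and leaving out NAM-treated tumor 2 or 3 gave 2 and 1.

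Among the other cells of AT3 tumors, 5 of 8 endothelial genes were higher, led by Kdr (1.54), Cdh5 (1.39), Tek (1.05) and Tie1 (0.73), but 3 of 8 without untreated tumor 1, NAM-treated tumor 2 or NAM-treated tumor 3, with upper quartile scaling, with all 14 tumors in 1 fit, or after removal of the length and GC trends. Of 9 leukocyte genes, 4 were higher, among them Itgam (1.18) and Adgre1 (1.05) of myeloid cells, and Cd79a (-1.14) of B cells was among those lower. Of 10 epithelial genes, Cdh1 was higher (0.90), and Krt19 (-1.24) and Krt14 (-0.79) were lower, whereas after removal of these trends, or with all 14 tumors in 1 fit, 0 were higher and 0 lower. No skeletal muscle gene and no sebaceous gene passed (10 and 3 tested).

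The fat genes were also compared between the untreated tumors of the models. The set was not chosen by this contrast, but earlier results of these data were known. On counts rescaled over all 14 tumors, 9 of 10 members were higher in untreated M/D-driven than in untreated AT3 tumors at the same thresholds (33.4% of all genes were), each also at an adjusted p of at most 0.05 (51.3% of all genes, in either direction), with no overlap between groups for these 9 (31.4% of all genes lay higher without overlap). Adrb3 had 16.7 ± 15.8 rescaled counts in AT3 (SD, n = 3) and 542 ± 245 in M/D-driven tumors (SD, n = 4), a log2 difference of 5.20 (SE 0.62, limma adjusted p = 0.000381). Adipoq had 121 ± 46.1 and 5548 ± 1011 (log2 difference 5.56, SE 0.27, limma adjusted p = 1.75e-05). The other differences were 6.71 for Lep (SE 0.58), 7.63 for Plin1 (SE 0.95), 6.87 for Cidec (SE 0.63), 6.21 for Retn (SE 0.73), 5.65 for Cfd (SE 0.28) and 2.50 for Pparg (SE 0.34), with limma adjusted p values of 1.75e-05 to 0.000675. Fabp4 differed least, with 8407 ± 2008 in AT3 and 24717 ± 14539 in M/D-driven tumors (1.41, SE 0.42, limma adjusted p = 0.023). Rescaling by the upper quartile took its difference to 0.69 (limma adjusted p = 0.205), so that 8 of 10 members passed. The median of all genes lay at 0.22 on this scale, and Ucp1 was listed at 0 in the 3 untreated AT3 tumors.

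**Figure D5:**
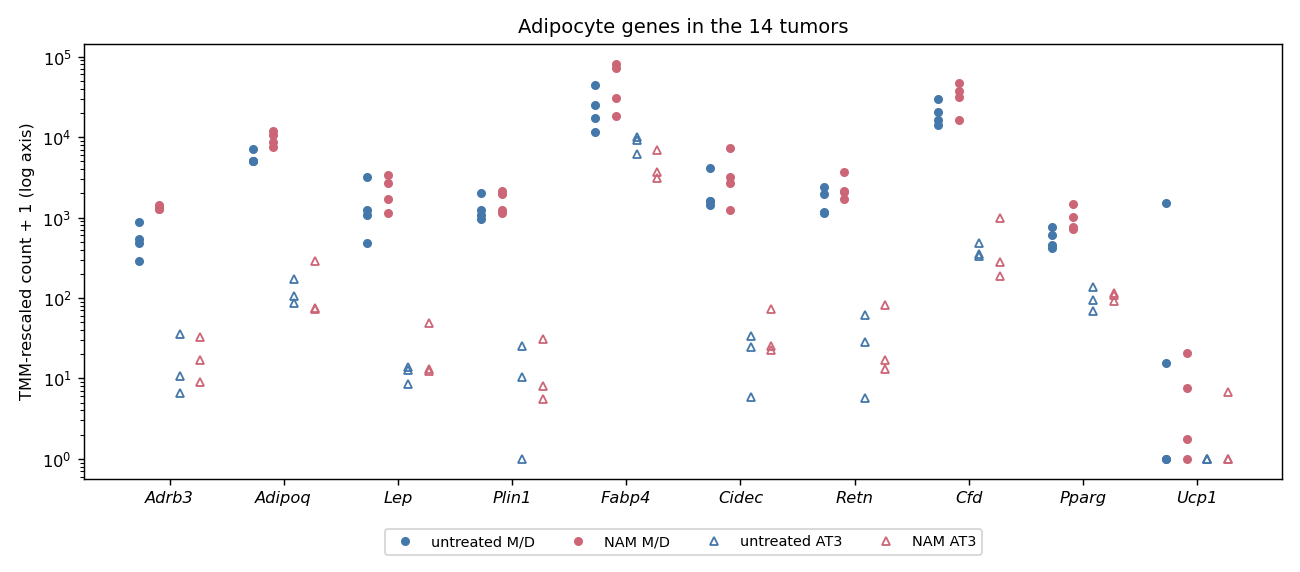
Counts rescaled by TMM over all tumors, plus 1 (log axis), of the 10 members in M/D-driven (filled circles) and AT3 tumors (open triangles), untreated in blue and NAM-treated in red, 1 point per tumor. The models lie apart for 9 members, with the narrowest gap for Fabp4, and Ucp1 is low in all tumors but 1.

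The wider lists gave the following counts in the same contrast, in which 33.4% of all genes were higher and 22.8% lower. Of 24 other mature adipocyte genes, 23 were higher in M/D-driven tumors (median 3.52), led by Pck1 (an enzyme of glycerol synthesis, 4.03 rescaled counts in AT3 against 1900 in M/D-driven tumors), Plin4 (a log2 difference of 7.06), Car3 (5.67) and Aqp7 (the glycerol channel, 1.88 against 90.4 rescaled counts), and 1 was lower. Of 18 beta-adrenergic and lipolysis genes, 16 were higher (median 2.14), among them Hcar1 (a lactate receptor of adipocytes, 4.38), Lipe (3.27) and Adcy3 (2.97). Of 12 adipogenic transcription factor genes, 6 were higher, led by Ebf1 and Cebpa (2.68 each), Zfp423 (2.32) and Ppargc1b (2.20), and 2 were lower. Of 15 brown and beige genes, 6 were higher, among them Cidea (6.42), Dio2 (3.45) and Otop1 (0.627 against 88.4 rescaled counts), and 3 were lower, among them Zic1 (-3.95). Of 10 fatty acid synthesis genes, 6 were higher (Scd1 by 3.33, Scd2 by 2.16 and Acacb by 2.15 among them) and Thrsp was lower (-4.47), and of 10 progenitor genes 6 were higher, led by Icam1 (4.02), Dpp4 (3.21), Bmp7 (2.77) and Pdgfra (2.09). Genes of other cells were higher as well: 7 of 10 epithelial genes (median 2.72, led by Cldn3, Cldn4, Krt19 and Krt5), 7 of 8 endothelial genes (median 1.67, led by Tek, Kdr, Vwf and Cdh5), 5 of 9 leukocyte genes (median 2.33, led by Csf1r, Itgam, Cd3e and Ptprc) and 2 of 5 sebaceous genes (Krt79 and Mc5r), whereas 0 of 10 muscle genes passed. Their part in the levels of the members was not tested.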

How the data were processed

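Per the labels and the study's methods, the authors mapped paired reads of 75 bases with STAR 2.4.0 on mm10, counted them on the constitutive regions of Mouse FAST DB genes and divided counts by DESeq2 size factors. The deposited signal is thus a normalized count per gene, and the scaling had been done within each model. All values came back as whole reads (100% within 0.05 read), 40936868 to 84178009 per tumor. The labels do not say more of replicates than that each library is a separate tumor.

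Values were analysed as log2(normalized count + 1) by limma 3.58.1 under R 4.3.3, allowing for a trend of variance with level, over genes whose mean reached 10 in a group, with Benjamini-Hochberg adjustment over all genes tested. Models were compared on recovered reads rescaled by TMM. Alternatives used edgeR 4.0.16 and DESeq2 1.42.0 on recovered reads, other filters, scalings and pseudocounts, covariates and left-out tumors, and the fits were tested on simulated data. Named were all members, up to 4 called genes per list, neighbours within 200 kb and the 10 genes most like Adrb3, and some genes that this rule names are not reported here. Other genes named without a call (Plin4, Lipe, Pnpla2, Lpl and Adrb1) and the brown genes of untreated tumor 3 were chosen after their values were seen. Members and lists were chosen with earlier results of these data known. P-values measure the spread between these tumors only.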

Additional observations from a re-analysis of the deposited data

Results flagged for a closer look

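4 values lay far from the rest of their group, out of 20 groups of 4 tumors looked at, among which chance marks about 1 in 20. In untreated M/D-driven tumor 4, Adipoq had 7452 normalized counts against 5123 to 5276 in the other 3 untreated tumors, and Cidec 4377 against 1482 to 1657. Retn had 3955 in NAM-treated tumor 1, the tumor of Experiment 2, and 1895 to 2243 in NAM-treated tumors 2, 3 and 4. Ucp1 had 1563 in untreated tumor 3 against 0 to 15.3 in the other untreated tumors. The cause of these values was not tested.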

How the results depend on the processing

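In M/D-driven tumors, the count of genes past the thresholds was 1350. It was 2180 with no filter on low values, 859 with a group mean of at least 50, 2095 with DESeq2, 2132 with all 14 tumors in 1 fit, 760 with Adipoq and 890 with Plin1 (chosen after seeing the data) as a covariate, 1 at an adjusted p of at most 0.05, and 784 to 2712 when 1 tumor was left out (856 without untreated tumor 1, 784 without untreated tumor 4 and 2712 without NAM-treated tumor 2). In AT3 tumors, the count of 4458 became 2604 after trends with transcript length and GC content were removed, 1 at an adjusted p of at most 0.05 and 1618 to 6765 when 1 tumor was left out (2267, 6765 and 2637 without untreated tumors 1, 2 and 3, and 1861 and 1618 without NAM-treated tumors 2 and 3). Between models, 12176 genes became 10236 to 13613. The cause was not tested, apart from the fewer genes under a stricter filter.

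Of the members in AT3 tumors, Adipoq turned to 0.20 in edgeR, 0.21 in DESeq2 and 0.50 after removal of the length and GC trends, and ran from -0.75 to 0.26 when 1 tumor was left out. Cfd turned to 0.26, 0.27 and 0.44, and ran from -0.85 to 0.37. Pparg turned to -0.0041 in DESeq2 and -0.17 with upper quartile scaling, and ran from -0.19 to 0.28. With 1 tumor left out, Adrb3 ran from -0.28 to 0.93, Plin1 from -0.58 to 1.65 and Retn from -0.74 to 0.95. None of these values turned a call in the other direction. Adrb3 in M/D-driven tumors ran from 1.21 to 2.24 over the 20 alternatives. This difference chose the set, and leaving out a tumor could not reverse it where the groups lie apart, so nothing is read from its direction. The r of Adrb3 with Adipoq in M/D-driven tumors, 0.64, became -0.53 after centring on the groups. It was 0.57 to 0.86 when 1 tumor was left out (0.86 without untreated tumor 4).

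The labels do not say that replicate numbers pair tumors. Deviations of same-numbered tumors correlated at 0.11, -0.444, -0.216 and -0.186 in M/D-driven and at 0.126, 0.256 and -0.16 in AT3 tumors. Those of differently numbered tumors correlated at -0.217 to 0.389 and at -0.317 to 0.281. So few values cannot settle whether the numbers pair tumors. A fit with a replicate block called 1001, 5082 and 10731 genes in M/D-driven tumors, AT3 tumors and between models. In M/D-driven tumors each number holds 1 tumor of each group, so the block cannot change a difference, only its SE. The 1.47 of Adrb3 (SE 0.33) in that fit is thus no check of the pairing.

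Depth did not limit the members other than Ucp1 in M/D-driven tumors, whereas in AT3 tumors Adrb3, Lep, Plin1, Cidec, Retn and Ucp1 rested on few reads.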
